A study of Mus musculus with 2 samples.

Results

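The collagen genes are the protein-coding genes of the GENCODE M21 annotation whose symbol is Col, a number, the letter a and a number, and 44 of 21938 protein-coding genes met that rule. They were split by protein type into 11 fibrillar genes, 9 basement membrane genes and 24 other genes. The data were DNase-seq peaks from whole embryos of Mus musculus strain B6NCrl at embryonic day 10.5, males and females pooled, with no treatment or genotype contrast. DNase-seq cuts nuclei with DNase I and sequences the ends, so that a peak marks DNA that was open to the enzyme. The single group had 2 biological replicates, and the number of embryos in each was not given in the sources used here. The tissue was the whole embryo, so a site open in few cells and a site weakly open in many cannot be told apart.

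Collagens are secreted proteins whose chains wind into triple helices, and they make up much of the extracellular matrix. Fibrillar collagens are trimmed outside the cell and line up into the fibrils of skin, tendon, bone and cartilage. Basement membrane collagens form sheet-like networks and anchors beneath epithelia and around vessels, and the other types decorate fibrils, form beaded filaments or span the plasma membrane. In the mid-gestation embryo, notochord and mesenchyme make collagen and epithelia and vessels rest on basement membranes, while bone is still to form.

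The peaks around collagen genes on which the comparisons turn are printed here as mm10 plus-strand sequence, 5′ to 3′, because they are the strongest open promoter and the strongest open intronic site of each class. The promoter peaks lay at chr3:114030336-114030485 for Col11a1, chr10:77165576-77165745 for Col18a1 and chr11:51289616-51289765 for Col23a1. Capitals mark matches, on either strand, to any of 12 short motifs that are spelled out with their shares near the end.
Col11a1 promoter: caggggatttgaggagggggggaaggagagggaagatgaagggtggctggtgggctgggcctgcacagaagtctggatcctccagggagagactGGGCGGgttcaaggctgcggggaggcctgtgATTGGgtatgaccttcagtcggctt
Col18a1 promoter: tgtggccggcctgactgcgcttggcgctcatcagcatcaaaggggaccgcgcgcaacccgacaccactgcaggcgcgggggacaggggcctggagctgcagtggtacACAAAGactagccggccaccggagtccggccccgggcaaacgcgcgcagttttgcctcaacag
Col23a1 promoter: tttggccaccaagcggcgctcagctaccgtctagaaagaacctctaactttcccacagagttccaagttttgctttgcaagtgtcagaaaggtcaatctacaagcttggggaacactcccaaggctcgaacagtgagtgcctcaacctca
The intronic sites lay at chr15:97992996-97993165 in Col2a1, chr10:77152276-77152425 in Col18a1 and chr5:136864076-136864245 in Col26a1.
Col2a1 intron: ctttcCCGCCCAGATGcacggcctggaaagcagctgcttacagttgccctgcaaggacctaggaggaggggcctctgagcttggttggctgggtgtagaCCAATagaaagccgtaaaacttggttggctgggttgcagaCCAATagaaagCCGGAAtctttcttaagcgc
Col18a1 intron: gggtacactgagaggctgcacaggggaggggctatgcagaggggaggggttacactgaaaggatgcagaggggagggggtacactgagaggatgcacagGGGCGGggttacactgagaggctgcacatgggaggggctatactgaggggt
Col26a1 intron: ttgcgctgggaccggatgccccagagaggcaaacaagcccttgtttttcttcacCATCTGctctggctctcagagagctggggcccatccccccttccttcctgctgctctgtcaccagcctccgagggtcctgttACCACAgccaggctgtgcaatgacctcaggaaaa
The Col2a1 sequence held CCAAT in 2 places, and a GC box (GGGCGG on the minus strand) that overlapped an E-box (CATCTG on the minus strand) by 1 base.

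The 6 type IV genes lie head to head in pairs, and the shared peak nearest the middle between each pair's start sites is shown to set the pairs side by side. Col4a3 and Col4a4 had no shared peak there, so the nearest peak of replicate 2 is shown, and the Col4a5 and Col4a6 peak lies at the Col4a5 start site. These peaks lay at chr8:11312716-11312905 for Col4a1 and Col4a2, at chr1:82586776-82586925 for Col4a3 and Col4a4 and at chrX:141475276-141475425 for Col4a5 and Col4a6.
Col4a1/Col4a2: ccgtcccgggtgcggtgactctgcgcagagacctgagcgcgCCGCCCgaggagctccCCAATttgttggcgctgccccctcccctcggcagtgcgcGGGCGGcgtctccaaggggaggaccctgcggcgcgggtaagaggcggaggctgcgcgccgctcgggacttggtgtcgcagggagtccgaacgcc
Col4a3/Col4a4: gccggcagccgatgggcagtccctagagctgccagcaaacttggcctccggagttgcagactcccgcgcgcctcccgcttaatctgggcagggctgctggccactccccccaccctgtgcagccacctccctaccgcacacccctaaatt
Col4a5/Col4a6: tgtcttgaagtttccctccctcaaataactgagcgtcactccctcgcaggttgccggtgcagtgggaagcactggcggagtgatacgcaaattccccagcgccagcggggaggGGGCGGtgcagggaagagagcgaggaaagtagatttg
The Col4a1/Col4a2 sequence had 25 CpG dinucleotides, a GC box on each strand and CCAAT between them. The Col4a3/Col4a4 sequence had 8 CpG and none of the 12 motifs, and the Col4a5/Col4a6 sequence had 9 CpG and a single GC box.

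Replicate 1 held 207946 nuclear peaks and replicate 2 held 229568, each 150 bp wide, and 152091 of them paired reciprocally by their best overlap of at least 1 bp (shared peaks). Each peak carried the authors' whole-number score, whose median was 41 for the peaks of replicate 1 and 50 for those of replicate 2. How the score was made was not given in the sources used here, so it was used to rank and describe peaks. Read depth was not in the peak files and is unknown.

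Most collagen promoters were open. A promoter was called open where each replicate had a peak within 1 kb of any annotated transcription start site (TSS) of the gene, and its strength was the highest peak score there. This held for 35 of 44 collagen genes (79.5%), against 69.7% of all protein-coding genes. Among protein-coding genes with at least 10 kb of intron, as 43 of the 44 collagen genes have, 82.5% were open, which is above the collagen share. All 11 fibrillar genes were open, as were 7 of 9 basement membrane genes and 17 of 24 other genes (70.8%), so that the share of the other genes was close to that of all protein-coding genes. With the stronger 50% of each replicate's peaks, 29 collagen genes were open (65.9%), against 65.5% of all genes. No test of the classes was made.

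Open collagen promoters scored lower than open promoters in general. Their median strength, averaged over replicates, was 87, against 113.5 for all open genes. The median was 101 for fibrillar genes, 87 for basement membrane genes and 76 for the other genes. The order of the latter classes turned at a window of 2500 bp (89.5 and 91.25) and in replicate 2 alone (65 and 77). With replicate 2 alone, 9 basement membrane and 20 other genes counted as open, against 7 and 17 with both. Over the genes open in both replicates, the replicate 2 medians were 84 and 85. A strength of 100 or more was reached by 12 of the 35 open collagen genes, against 67.1% of all open genes. Of those 12 genes, 6 were fibrillar, 1 was a basement membrane gene and 5 were of other types. With TSSs of protein-coding transcripts alone, the fibrillar gene Col2a1 scored 88 and 101, a mean below 100. The fibrillar median was then 94.5, and the medians of the other classes stayed at 87 and 76.

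**Figure D1:**
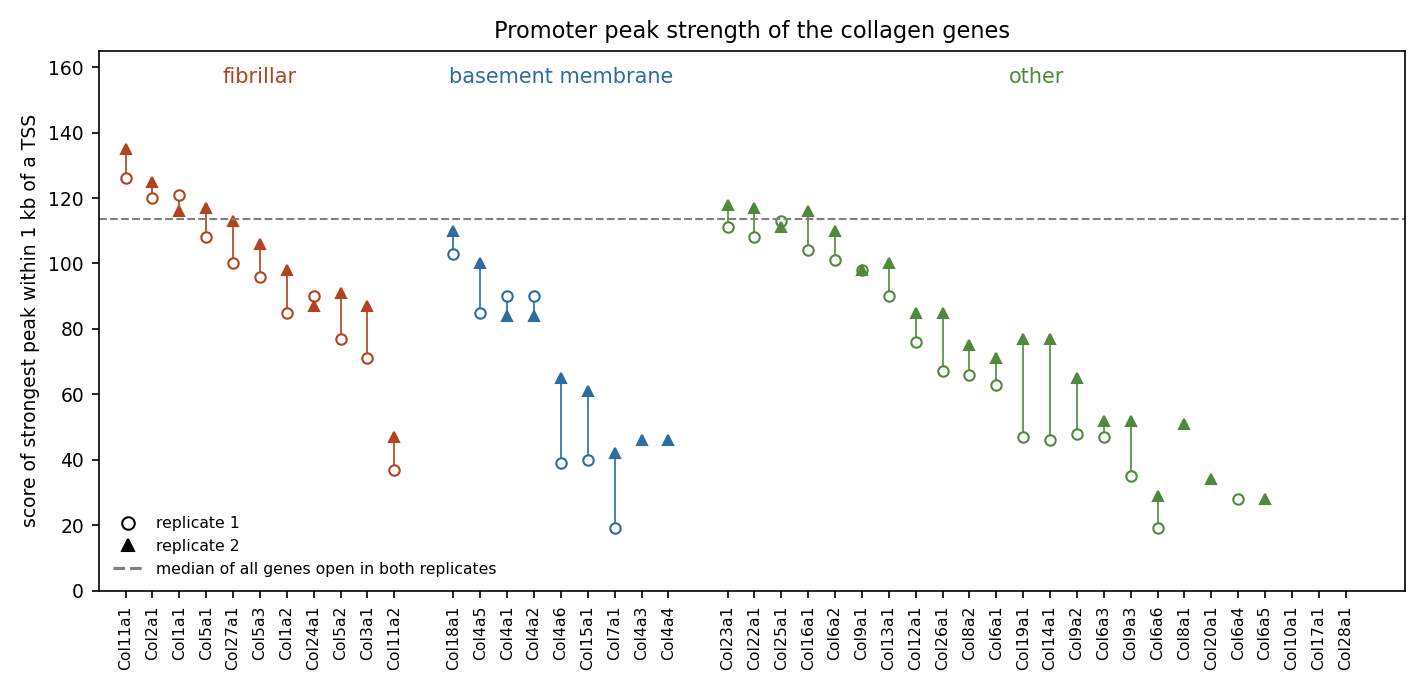
The score of the strongest peak within 1 kb of a TSS is plotted for each of the 44 collagen genes, by class, with replicate 1 as open circles, replicate 2 as triangles and a line joining the 2 replicates of a gene. The dashed line is the median of all open genes (113.5). Fibrillar genes run from 42 to 130.5 on the replicate mean, and genes with a single symbol or none are those not open in both replicates.

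Among the fibrillar genes, Col11a1, a chain of the thin fibrils of cartilage, had the strongest promoter, at 126 in replicate 1 and 135 in replicate 2 (130.5 ± 6.36, SD, n = 2). Col2a1, the main cartilage and notochord collagen, scored 120 and 125 (122.5 ± 3.54, SD, n = 2). Col1a1, which with Col1a2 encodes type I collagen of skin, tendon and bone, scored 121 and 116 (118.5 ± 3.54, SD, n = 2). Col11a1 led the class in both replicates, while Col1a1 stood above Col2a1 in replicate 1 and below Col2a1 and Col5a1 in replicate 2. Col5a1, Col5a2 and Col5a3, whose type V collagen starts fibrils, scored 108 and 117, 77 and 91, and 96 and 106. Col27a1 and Col24a1 scored 100 and 113, and 90 and 87. Col1a2 scored 85 and 98, and Col3a1, a collagen of vessel walls and skin, 71 and 87. Col11a2, the second minor chain of cartilage fibrils, was the weakest, at 37 and 47, well apart from the other 10 fibrillar genes in both replicates.

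For several fibrillar genes the strongest of these peaks did not lie at the 5′-most TSS. In Col1a1 the peak over the 5′-most TSS scored 44 and 61, and the site of 121 and 116 lay 0.917 kb downstream, in an intron. In Col1a2 the peak over the 5′-most TSS scored 43 and 65, and stronger peaks lay downstream at 0.777 kb (85 and 98), 23 bp from another coding TSS, and at 1.58 kb (77 and 90). In Col2a1 the peak at the 5′-most TSS scored 88 and 101, and the site of 120 and 125 lay 14.4 kb downstream, near a TSS annotated to a processed transcript. In both replicates of the type I genes the higher score lay downstream of the 5′-most TSS, in Col1a1 832 bp from the nearest coding TSS and in Col1a2 beside one. Of the 34 collagen genes with a shared promoter peak, 10 (29.4%) had the strongest more than 500 bp from the TSSs of their protein-coding transcripts, against 11.1% of all genes with such a peak. By class this was 4 of 11 fibrillar, 2 of 7 basement membrane and 4 of 16 other genes. Collagen genes had a median of 4 annotated TSSs and fibrillar genes 6, against 3 for all genes, and the part of TSS number in this share was not tested.

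**Figure D2:**
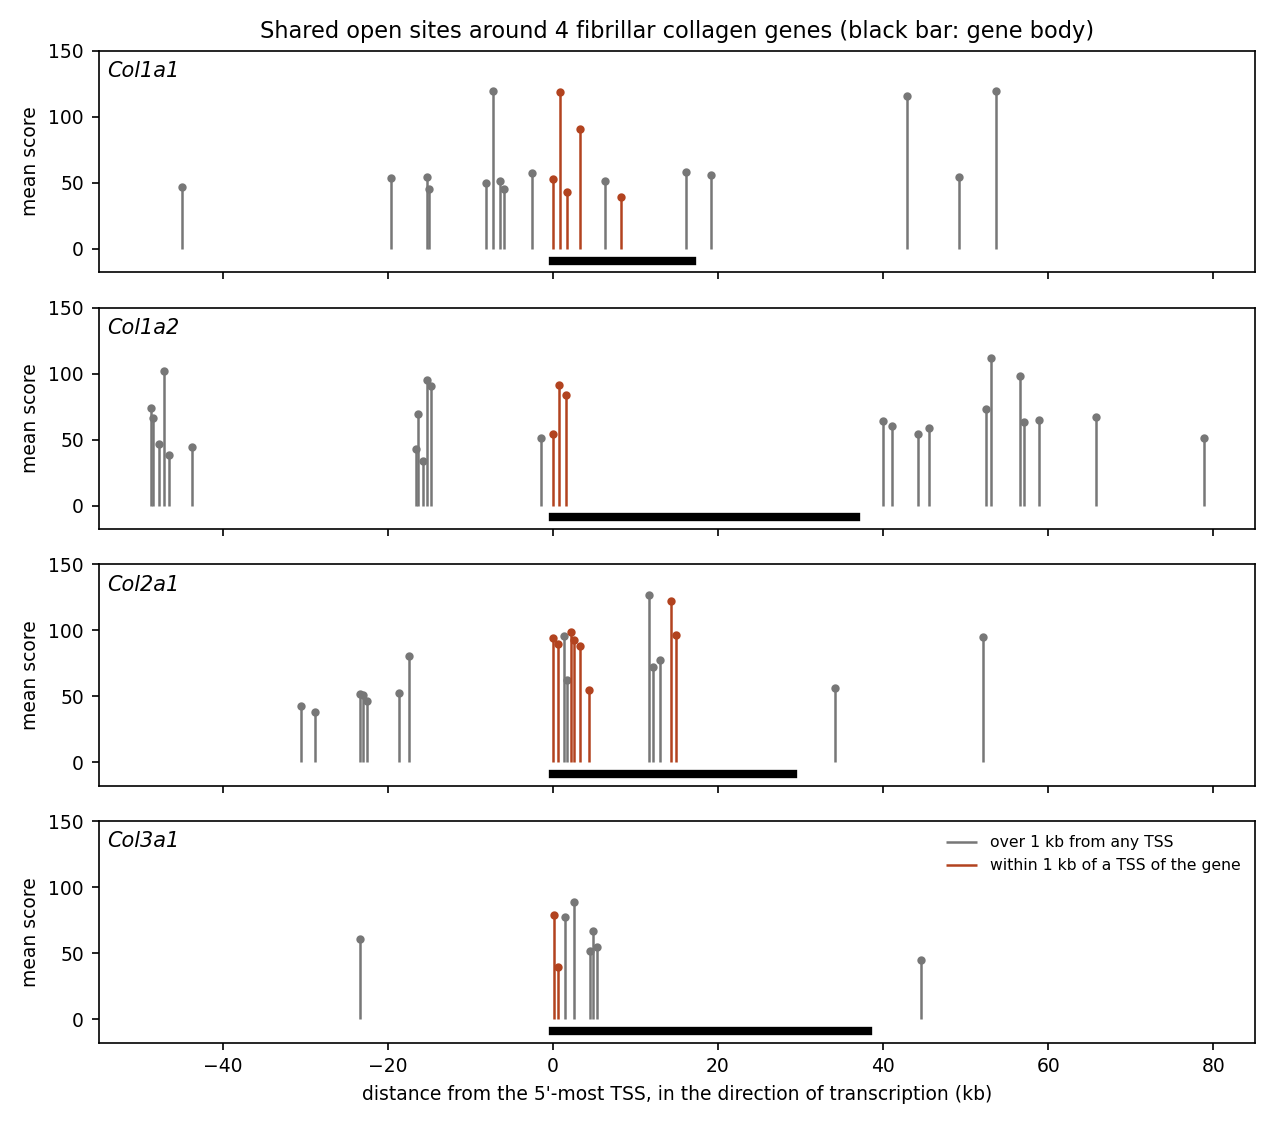
Shared peaks around Col1a1, Col1a2, Col2a1 and Col3a1 are drawn as stems whose height is the score averaged over both replicates, against distance from the 5′-most TSS in kb. Red stems lie within 1 kb of a TSS of the gene, grey stems lie over 1 kb from any annotated TSS, and the black bar is the gene body. In Col1a1 and Col1a2 the highest red stem stands downstream of the TSS, and Col1a2 has clusters of grey stems on both sides of the gene.

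Among the basement membrane genes, Col18a1, which encodes the collagen that yields endostatin, was the strongest, at 103 and 110 (106.5 ± 4.95, SD, n = 2). Its printed peak lay 0.888 kb downstream of the 5′-most TSS in an intron, and the peak over that TSS scored 97 and 101. Its downstream promoter, 77.0 kb into the gene, was open too, at 49 and 66. Col15a1, the relative of Col18a1, scored 40 and 61. Col7a1, whose product anchors the epidermis, scored 19 and 42, the lowest strength of the open genes in this class. Col18a1 was the strongest and Col7a1 the weakest open gene of the class in both replicates.

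The type IV pairs, whose products build the networks of basement membranes, differed from each other. Col4a1 and Col4a2, the chains found in nearly all basement membranes, start 116 bp apart and shared a peak that scored 90 in replicate 1 and 84 in replicate 2. Col4a3 and Col4a4, chains of the mature kidney filter, start 72 bp apart, had no peak between or beside their TSSs in replicate 1, and had peaks of 46 and 37 in replicate 2. Col4a5 and Col4a6 start 1309 bp apart and had separate peaks at each TSS. Col4a5 scored 85 and 100 and Col4a6 scored 39 and 65, so that Col4a5 was the stronger in both replicates. Between those peaks replicate 2 had further weak peaks, scoring 22, 26 and 25, and replicate 1 had none.

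**Figure D3:**
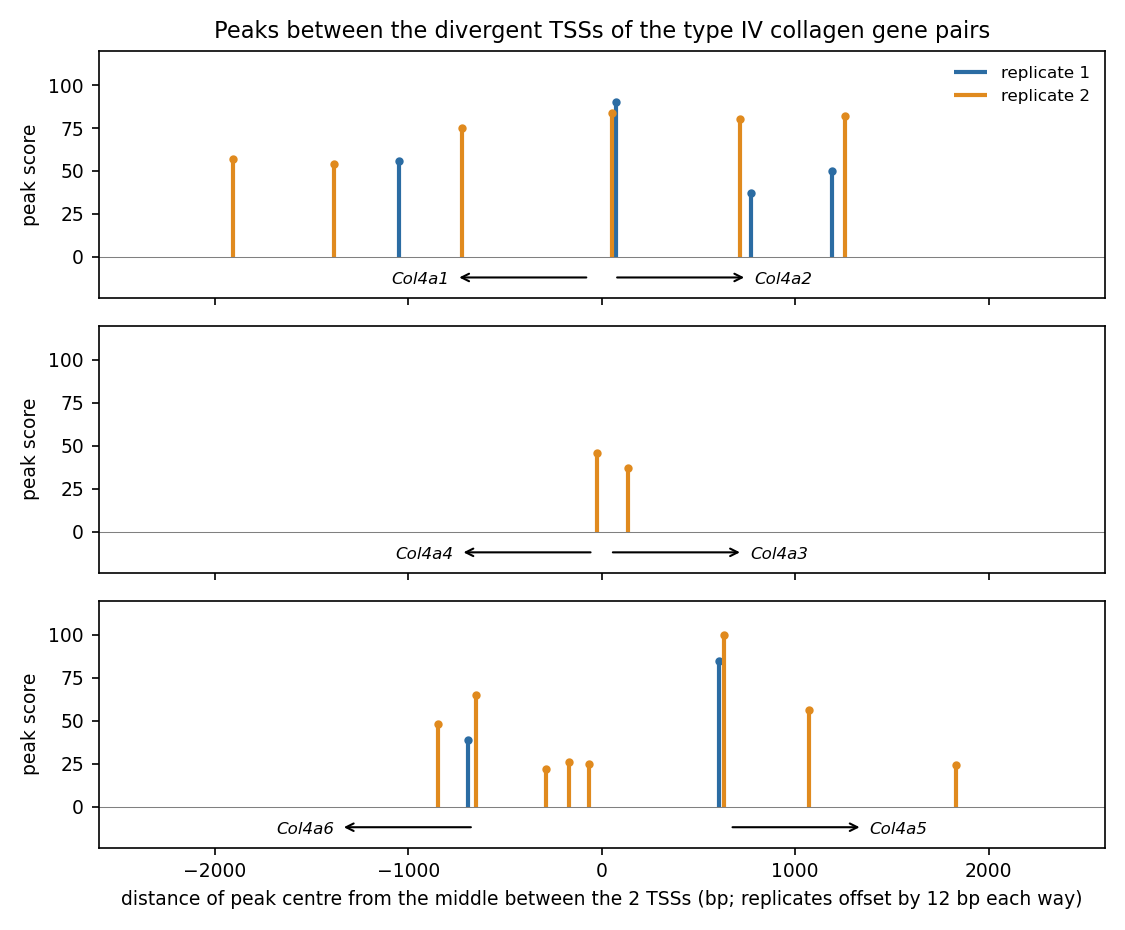
Peaks of replicate 1 (blue) and replicate 2 (orange) around the head-to-head type IV genes are drawn by score against the distance in bp from the middle between the TSSs, with arrows for the direction of transcription. Stems are shifted by 12 bp each way so that both replicates show. Col4a1 and Col4a2 have a peak of 84 to 90 near the middle, Col4a3 and Col4a4 have peaks in replicate 2 only, and Col4a5 and Col4a6 have separate peaks.

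Among the other types, the transmembrane collagens Col23a1 and Col25a1 and the fibril-associated collagens Col22a1 and Col16a1 had the strongest promoters. Col23a1 scored 111 and 118 (114.5 ± 4.95, SD, n = 2), Col22a1, found at tissue junctions such as that of muscle and tendon, 108 and 117 (112.5 ± 6.36), and Col25a1 113 and 111 (112 ± 1.41). Col16a1 scored 104 and 116. The Col25a1 peak lay 49.1 kb downstream of the annotated 5′-most TSS, at a TSS of coding transcripts, and no shared peak lay at the 5′-most TSS itself. Col9a1, a chain that coats cartilage fibrils, had no shared peak at its 5′-most TSS either. Its shared promoter peaks lay 17.6 kb downstream at a coding TSS (61 and 75), 18.7 kb downstream (98 and 98) and 53.0 kb downstream (69 and 62). Col8a2, a collagen of the corneal endothelium, had its shared promoter peak 14.7 kb downstream (66 and 75). With the 5′-most TSS alone, Col25a1, Col9a1 and Col8a2 were not open, and 32 collagen genes were (72.7%, against 65.3% of all genes). Of the 6 type VI genes, whose products form beaded filaments, Col6a2 was the strongest at 101 and 110, Col6a1 scored 63 and 71 and Col6a3 47 and 52. Col6a6 scored 19 and 29, and its peaks did not overlap between replicates.

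Col19a1 and Col14a1 were the open genes whose replicates lay furthest apart in score units among the other types. Col19a1 scored 47 and 77 and Col14a1 46 and 77. Over all open collagen genes replicate 2 exceeded replicate 1 by a median of 0.16 on the log2 scale, against 0.10 for all open genes. The difference ran from -0.10 in Col4a1 to 1.14 in Col7a1. In Col7a1 the replicate 2 strength of 42 came from an unpaired peak, and its shared promoter peak scored 19 and 36. The hotspot over an open promoter, a wider region that the authors called, was 598 bp wide at the median of the collagen genes in replicate 1 and 1501 bp wide in replicate 2, against 841 bp and 1487 bp for all open genes. Replicate 2 thus had the higher scores and the wider hotspots, and 40 collagen genes had a promoter peak in replicate 2 against 36 in replicate 1.

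The 9 collagen genes that were not open were Col4a3, Col4a4, Col6a4, Col6a5, Col8a1, Col10a1, Col17a1, Col20a1 and Col28a1. Replicate 2 alone had a peak at Col4a3 and Col4a4 (46), Col8a1 (51), Col20a1 (34) and Col6a5 (28), and replicate 1 alone had a peak at Col6a4 (28). At Col20a1 both replicates had a hotspot, 512 bp wide in replicate 1 and 56 bp wide in replicate 2. At the others just named, hotspots lay only in the replicate that had the peak. Col10a1, the collagen of hypertrophic cartilage, Col17a1, a part of the hemidesmosomes of skin, and Col28a1, a collagen of peripheral nerve, had no peak in either replicate. A share of 27% of all protein-coding genes had none. Genes that were not open still had open sites elsewhere, with 11 intronic and 13 distal shared peaks for Col28a1 and 3 and 8 for Col17a1. At a window of 2500 bp, Col17a1, Col20a1 and Col28a1 counted as open.

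CpG content ran alongside promoter state. The ratio of observed to expected CpG within 500 bp of the 5′-most TSS had a median of 0.435 for collagen genes, against 0.552 for all protein-coding genes. It was 0.447 for open and 0.329 for not open collagen genes, against 0.691 and 0.163 for all genes, so that the open collagen genes were poorer in CpG than open genes in general. Strong promoters spanned the range, with Col23a1 at 0.874, the highest of the members, Col5a1 at 0.821, Col2a1 at 0.602, Col11a1 at 0.459, Col1a1 at 0.300 and Col22a1 at 0.220. Col3a1, at 0.178, had the lowest value of the open members. These ratios belong to the 5′-most TSS, while strength was taken near any TSS of the gene. The strongest peaks of Col2a1 and Col1a1 lay 14.4 kb and 0.917 kb downstream of the 5′-most TSS, outside the stretch used for CpG. The part of CpG content in promoter strength was not tested.

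Inside the genes, collagens had many open sites, and their introns were long. The median intron length was 106 kb, against 13.5 kb for all genes, and it was 38.2 kb for fibrillar, 125 kb for basement membrane and 97.0 kb for other genes. An intronic peak was a shared peak inside the gene, off all annotated exons and over 1 kb from any annotated TSS. Collagen genes held 330 such peaks, in 38 of 44 genes, while 40.8% of all protein-coding genes, and 65.1% of those with at least 10 kb of intron, held any. Per 100 kb of intron the median was 5.56 for collagen genes, against 3.39 for all genes with at least 10 kb of intron. The class medians were 5.56 for fibrillar, 5.48 for basement membrane and 5.79 for other genes. Pooled over genes, the density was 6.58 for collagen genes and 4.91 for all genes, and by class it was 5.09, 5.88 and 7.37. With the stronger 50% of peaks, the median per 100 kb was 2.43 for collagen genes and 0 for all genes, and the class medians lay further apart, at 0.838, 3.74 and 2.43.

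Col25a1 had 41 intronic shared peaks and Col23a1 had 38. The replicates held 48 and 61 intronic peaks in Col25a1 and 39 and 62 in Col23a1. In Col23a1 the 4 strongest sites lay near the 3′ end, at 245 to 254 kb from the TSS, with 101 and 110 for the highest. The strongest site of Col25a1 scored 105 and 111, at 282 kb. The 4 transmembrane collagen genes, Col13a1 and Col17a1 included, held 97 of the 330 intronic peaks. They had 920 of the 5017 kb of collagen intron, and their pooled density was 10.5 per 100 kb. Per 100 kb, Col25a1 had 9.00 and Col23a1 13.2. Col13a1, a transmembrane collagen of the neuromuscular junction, Col14a1, which binds type I fibrils, and Col26a1 had 15 each. Col18a1 had 20 intronic peaks in 107 kb of intron, or 18.6 per 100 kb, the highest density among the members. Its strongest site, printed above, scored 112 and 122 at 14.2 kb from the TSS. Similar short stretches recur along that printed sequence, and whether reads could be placed uniquely there was not examined. Col4a2 had 17 intronic peaks and Col4a6 had 9 in 301 kb. Col4a5, with 207 kb of intron, had 1.

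Among the fibrillar genes, Col5a1 had 13 intronic peaks, Col24a1 had 10 and Col27a1 had 6. Col1a1, Col1a2, Col6a1, Col6a2, Col7a1 and Col10a1 had none under this definition, with 3.98 to 24.3 kb of intron each. The Col2a1 site printed above, at 11.6 kb from the TSS, scored 117 and 136. The other Col2a1 sites under this definition scored 55 and 89, and 74 and 81, at 12.2 and 13.0 kb. Shared peaks between coding exons but within 1 kb of a TSS were counted as promoter peaks instead. In Col2a1 these included sites at 2.20 kb (92 and 105), 2.50 kb (85 and 101), 4.38 kb (51 and 59) and 14.9 kb (99 and 94). In Col3a1 the intronic sites lay at 1.49 kb (70 and 84) and 2.56 kb (82 and 95), near the TSS. When exons of protein-coding transcripts alone were left out, Col2a1 and Col3a1 each had 5 intronic peaks and Col1a1 and Col1a2 still had none.

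Pooled over the class, the intronic peaks of fibrillar genes lay toward the 5′ end. Of their 48 intronic peaks, with the gene cut into 4 equal parts, 37.5% lay in the part at the 5′ end, 37.5% in the next, 16.7% in the next and 8.33% in the part at the 3′ end. For basement membrane genes the shares were 29.2%, 30.6%, 19.4% and 20.8%. For the other genes they were 20.5%, 20.95%, 32.4% and 26.2%, and for all protein-coding genes 25.7%, 25.9%, 25.3% and 23.1%. The peaks of a class come from few genes, and the difference was not tested. How much intron each of the 4 parts holds was not measured, and its part in these shares was not tested. Col24a1 and Col27a1 had intronic peaks in all 4 parts. Some of the fibrillar peaks lay little more than 1 kb from a TSS. With peaks over 2500 bp from any TSS, the fibrillar median per 100 kb fell from 5.56 to 2.51. That of all genes fell from 3.39 to 2.12. The median score of intronic peaks was 51.5 for collagen genes and 50 for all genes.

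**Figure D4:**
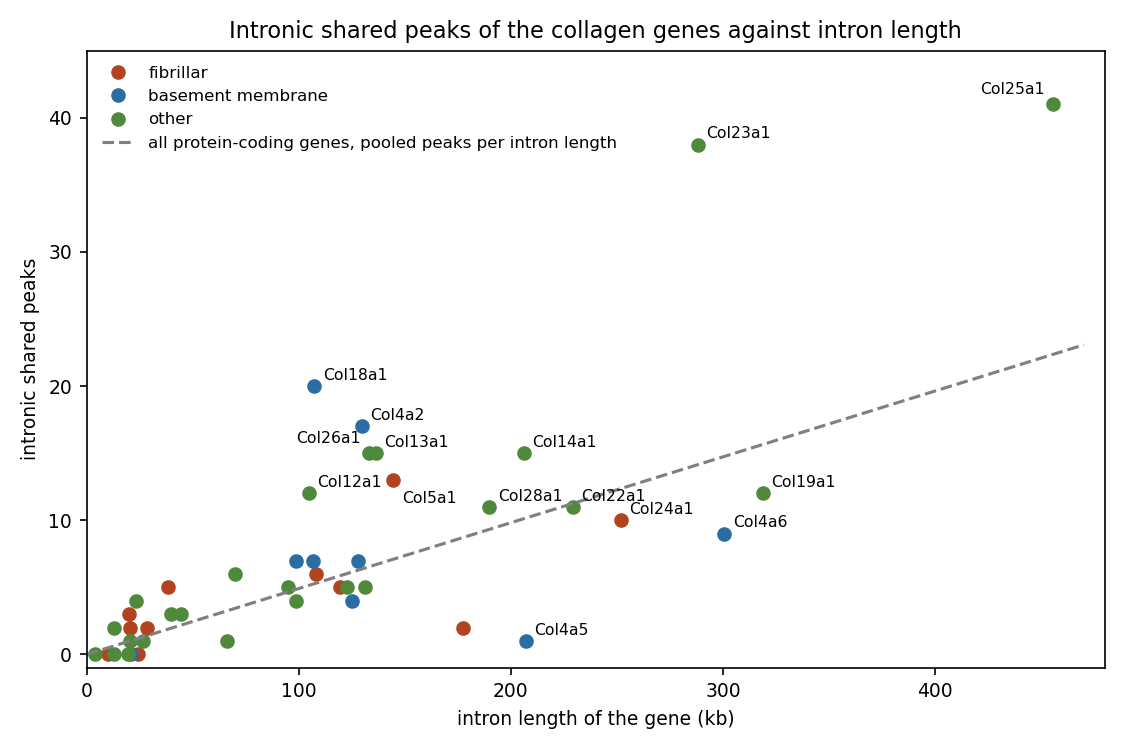
Each point is a collagen gene, with its intron length in kb on the x axis and its number of intronic shared peaks on the y axis, coloured by class. The dashed line is the pooled density over all protein-coding genes (4.91 per 100 kb). Col25a1 and Col23a1 stand above the rest with 41 and 38 peaks, and Col4a5, at 207 kb of intron and 1 peak, stands below the line.

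Outside promoters, all 44 collagen genes had a distal peak, a shared peak over 1 kb from any annotated TSS and within 50 kb of a TSS of the gene, and 87.2% of all genes had one. Of the 12393 protein-coding genes with at least 10 kb of intron, 11507 had one. The median number was 10 for collagen genes, against 5 for all genes and 6 for those with at least 10 kb of intron. By class it was 12 for fibrillar, 6 for basement membrane and 11.5 for other genes. These windows held 490 distinct peaks, and for 381 of 510 gene and peak pairs (74.7%) the nearest protein-coding TSS was that of the collagen gene. Intronic peaks within 50 kb are part of this count. When distance was taken from the 5′-most TSS alone, the collagen median was 6 and that of all genes 4, so that the number of annotated TSSs bears on the count.

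Col13a1 had 32 distal peaks, a number that 0.465% of protein-coding genes reached. From its 5′-most TSS alone it had 13. Col18a1 and Col26a1 had 27 each (20 and 10 from the 5′-most TSS), Col4a2 had 26 (10) and Col1a2 23 (16). The strongest site of Col26a1, printed above, scored 127 and 128 at 19.0 kb from the TSS. At the low end, Col4a5, Col8a1 and Col10a1 had 2 each.

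The distal sites of the type I genes lay in groups. For Col1a2 an upstream group between -48.6 and -43.8 kb from the TSS had its highest site at -47.1 kb, with scores of 103 and 101. A nearer upstream group, between -16.6 and -14.7 kb, reached 95 and 95 at -15.3 kb. Beyond the 3′ end, sites from 39.9 to 58.8 kb downstream of the TSS reached 109 and 115 at 53.1 kb. In replicate 1 the highest site of each group scored above the Col1a2 promoter (85), and in replicate 2 the site at -15.3 kb did not (95 against 98). For Col1a1 the highest distal sites lay at -7.19 kb from the TSS (118 and 121) and at 53.7 kb (119 and 120), the latter nearer to the TSS of another protein-coding gene, and 15 sites lay within 50 kb. Col3a1 had 7 distal sites, and Col11a1, with the strongest promoter of the class, had 4.

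**Figure D5:**
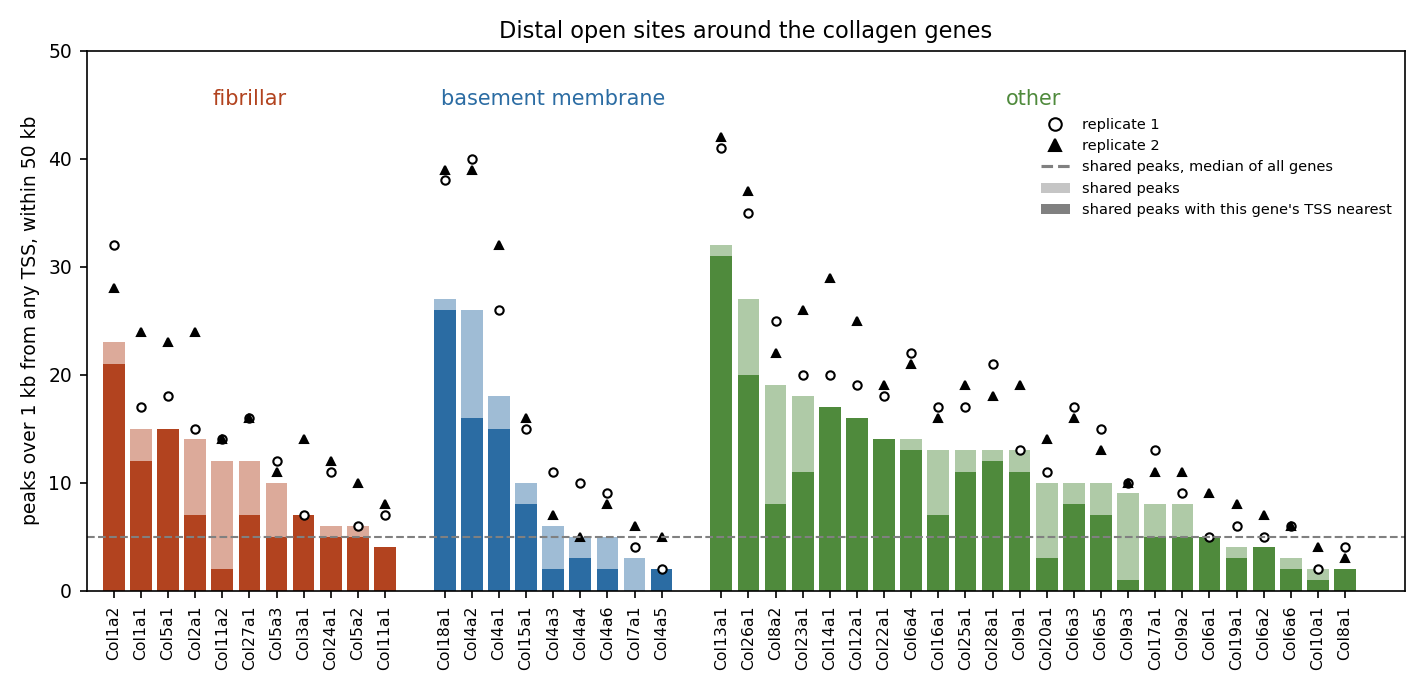
Bars give the number of distal shared peaks of each collagen gene by class, the darker part counting those for which the gene's own TSS was the nearest protein-coding TSS. Circles and triangles give the number of distal peaks in replicate 1 and replicate 2, and the dashed line is the median of shared peaks over all protein-coding genes (5). Col1a2, Col18a1 and Col13a1 lead their classes with 23, 27 and 32.

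The genes that fold, process, bind, break down or transcriptionally control collagen were listed by role. Of 64 such genes matched in the annotation, 60 were open (93.8%), against 69.7% of all protein-coding genes and 79.5% of collagen genes. Their median strength was 98.5, below the 113.5 of all open genes and above the 87 of open collagen genes, and no test of these differences was made. All 18 genes for folding and modification were open, with a median of 121.5. They were led by P4hb, the shared subunit of prolyl hydroxylase (134 and 134), and Ppib, a prolyl isomerase (134 and 132). The 5 secretion genes were open, with Sec23a, a COPII coat subunit, at 130 and 133 and Mia3, the receptor that loads procollagen, at 131 and 123. The 8 genes for propeptide cleavage were open, with Pcolce, an enhancer of the C-proteinase, at 109 and 112 and Tll2, a protease of that family, at 97 and 110. Of 5 crosslinking genes 4 were open, with Loxl3 at 108 and 115 and Loxl1 at 99 and 108. Loxl2 had no peak, and it lay in a stretch of 447.8 kb without any peak in either replicate that held 6 genes. Whether reads could be placed in that stretch was not examined.

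Fibril assembly genes were all open (7 of 7) with a lower median strength of 53, against 121.5 for the folding genes. Fn1, the fibronectin on which fibrils form, scored 121 and 129, and Sparc, a collagen-binding matrix protein, 105 and 109. The leucine-rich proteoglycans of fibrils scored lower, with Dcn at 72 and 84, Lum at 47 and 59 and Bgn at 26 and 43. Of 8 receptors 7 were open, led by Itgb1, the common beta integrin chain (116 and 131), and Ddr1, a collagen-binding kinase (117 and 128). Gp6, the platelet receptor, had no promoter peak. Of 6 genes for breakdown 4 were open, led by Mmp14 (98 and 103) and Mmp2 (91 and 92). The collagenase genes Mmp8 and Mmp13 had no promoter peak. The 7 listed transcription factors of collagen genes were open, led by Sp1 (140 and 144) and Sox9, the activator of Col2a1 (130 and 131).

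Short motifs were counted in the 150 bp at the centre of shared peaks, on both strands. The SOX motifs searched were ACAAAG and, as its common variant, ACAATG. The AP-1 motif was TGANTCA, the GATA factor motif was AGATAA and the homeodomain motif was TAATTA. The NF-Y motif was CCAAT, the GC box was GGGCGG and the TATA box was TATAAA. The RUNX motif was TGTGGT, the TEAD motif was GGAATG, the E-box was CATCTG and the ETS motif was CCGGAA. A match describes the letters and is neither a site nor a cause. In the strongest promoter peaks of collagen genes, 33 distinct peaks, GGGCGG was found in 11 (33.3%), against 52% of 13920 such peaks of all genes. CCAAT was found in 8 (24.2%), against 29.5%, and CCGGAA in 0, against 18%. TGANTCA was found in 3 (9.09%), against 2.07%. The median GC content of these peaks was 60.7% for collagen genes and 64% for all genes. The peak lay more than 500 bp from the TSSs of protein-coding transcripts in 29.4% of the collagen genes, against 11.1% of all genes. The part of that difference in the motif shares was not tested.

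In the 330 intronic peaks of collagen genes the shares stood closer to those of the 46666 intronic peaks of all genes. CATCTG was found in 20.9%, against 20.2%, CCAAT in 19.1%, against 17.3%, and ACAAAG in 13.3%, against 16.8%. TGANTCA was found in 7.27%, against 5.33%, and TAATTA in 2.12%, against 4.29%. The 490 distal peaks, which include many of the intronic ones, held TGANTCA in 7.14%, against 5.47% of 111166, and TAATTA in 2.24%, against 4.19%. The median GC content was 50.3% for collagen and 50% for all intronic peaks.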

How the data were processed

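DNase-seq was measured in 2 biological replicates of 1 group. Per the text deposited with the files and the labels, the authors called peaks and hotspots on each replicate separately on mm10. The aligner, peak caller, versions and thresholds were not given in the sources used here. The authors deposited each peak with a whole-number score, from 2 to 149, and each hotspot with a −log10 q-value, at least 1.3 and at most 100. Scores were not rescaled, and hotspots were used for their widths. The score is an authors' value without a stated unit, and differences of replicate scores are not adjusted for depth.

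Peaks on nuclear chromosomes were kept once each. TSSs, exons and genes came from GENCODE M21 and sequence from the mm10 reference, read with Python 3.11.15, pandas 2.3.3, numpy 2.4.6, pyfaidx 0.9.0.4 and samtools 1.23.1. Shared peaks, printed as the union of both replicates' intervals, were reciprocal best overlaps. Median densities used genes with at least 10 kb of intron, and pooled densities used all genes of a set. The procedure was tested on simulated data. Without a contrast, no p-value was computed, and classes were described by counts and medians beside all protein-coding genes. Members, classes, pathway genes and motifs were chosen with earlier results of these data known. Of 65 listed pathway genes, Mmp1a was not a protein-coding gene in the annotation. Named genes were, per class, the strongest, those with most intronic and distal peaks, all not open and the head-to-head pairs, and, per pathway role, the 2 strongest and all not open. Other genes were named after their values were seen, Dcn, Lum and Bgn among them. Alternatives were the TSS window, the TSS set, the stronger 50% of peaks, the distances, the overlap, single replicates and class lists.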

Additional observations from a re-analysis of the deposited data

How the results depend on the processing

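No paired analysis was possible because the study has a single group. Of 148 alternative values for 21 results, 105 counted as the same and 43 as moved. A count or density counted as the same where the larger value was at most 1.5 times the smaller. A median strength counted as the same where it changed by no more than the SD of the 2 replicates' medians. The ratio of 1.5 was a set limit and not a measured spread. The open count was 29 to 40 of 44 over the alternatives. Basement membrane genes open were 4 of 9 with the stronger 50% of peaks, and 4 of 6 when the class was type IV alone. Median promoter strength at a window of 2500 bp was 92 for collagen, 89.5 for basement membrane and 91.25 for other genes. With the stronger 50% of peaks it was 92.5 for collagen and 89.75 for basement membrane genes, and at 500 bp or with the 5′-most TSS alone it was 91.5 for fibrillar genes. Without a replicate it was 85 for collagen genes and 65 to 85 for basement membrane genes. Median intronic counts with the stronger 50% of peaks were 2, 1, 4 and 2 for collagen, fibrillar, basement membrane and other genes. Without a replicate they were 4 to 6 for fibrillar and 6 to 8 for other genes. Per 100 kb, the stronger 50% gave 2.43 for collagen, 0.838 for fibrillar and 2.43 for other genes, and peaks over 2500 bp from any TSS gave 2.51 for fibrillar genes. Without a replicate the density was 8.42 to 8.95 for collagen, 7.04 to 8.42 for basement membrane and 8.57 to 9.11 for other genes, since unpaired peaks then count. Median distal counts with the 5′-most TSS alone were 6 for collagen and 6 for other genes. The stronger 50% gave 6, 7, 3 and 6 in the order above, 20 kb gave 5, 4, 2 and 5, and 100 kb gave 16 for collagen, 20 for fibrillar and 10 for basement membrane genes. Without a replicate the distal count was 8 to 11 for basement membrane genes. Added after seeing the data, TSSs of protein-coding transcripts alone gave a distal median of 7.5 for other genes, and exons of protein-coding transcripts alone gave an intronic median of 5 for fibrillar genes. The order of classes turned in places. Median strength was 89.5 for basement membrane against 91.25 for other genes at 2500 bp. Without replicate 1, where more genes of both classes counted as open, it was 65 against 77. At 20 kb the distal median was 4 for fibrillar against 5 for other genes. Beyond construction, the cause was not tested. With 2 replicates and no read counts, sites under the authors' threshold could not be told from closed ones.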
